A study of Mus musculus with 2 samples.

Results

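The immediate early genes are Fos, Fosb, Jun, Junb, Jund, Egr1, Ier2, Atf3, Zfp36 and Btg2. They were taken by symbol from the gene tables of both libraries, and all 10 were found among 43346 mouse genes. The study sequenced long total RNA of whole liver, taken at 8 weeks of age from the strain C57BL/6J, and names no treatment. There are 2 libraries, biological replicates 1 and 2 of 1 group. Each has its own biosample, but the donor identifier is the same, and the labels give no sex and call the health state unknown. Whether separate animals were used is not stated, so a difference between the libraries may be technical. With 1 group there is no test between conditions. Levels are given for each library, and ratios describe how far the libraries lie apart.

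Immediate early genes are transcribed within minutes of a signal, with no need for new protein synthesis. Growth factors act through a kinase cascade on the serum response factor SRF and its partners at CArG boxes, and cAMP and calcium act through CREB at cAMP response elements. Fos and Jun proteins pair through leucine zippers to form AP-1, Egr1 is a zinc finger activator, and Zfp36 and Btg2 act on messenger RNA decay. Many of these messenger RNAs are short-lived because AU-rich elements in their 3' ends recruit deadenylases. In liver the group is known for its fast induction after partial hepatectomy, injury and feeding, and also during tissue handling.

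The 10 genes ranged from above most protein-coding genes (Junb) to nearly undetected (Fosb). Levels are endogenous TPM, the deposited length-scaled abundance (TPM) rescaled over all mouse genes of the file without spike-ins, a scale on which protein-coding genes hold a minor part of the total, so that their values read low. The 10 genes summed to 9.62 TPM in replicate 1 and 20.3 TPM in replicate 2, from 5724 and 8105 expected counts. The libraries held 83816487 and 71068191 expected counts over mouse genes, so that genes under 1 TPM in replicate 1 still rested on 32 to 607 counts, Fosb apart. TPM was higher in replicate 2 for the bulk of genes, with a median log2 ratio of 0.54 over all genes that averaged at least 10 counts, and the SDs of TPM below contain that offset. The deposited posterior SD of the count was 0 for all 10 genes in both libraries. That value covers the gene's count alone, and not its split among transcripts.

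**Figure D1:**
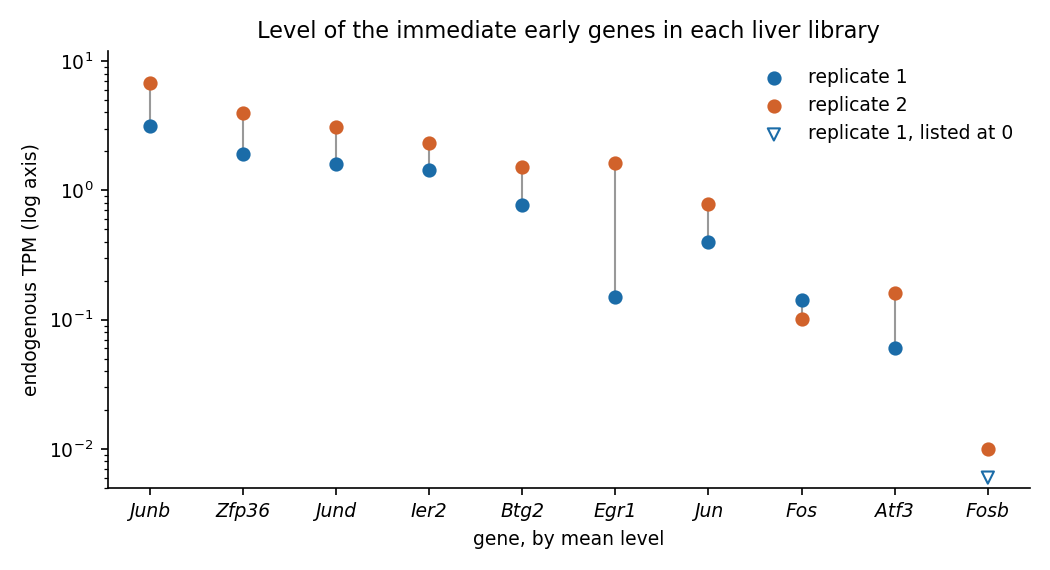
Level of each immediate early gene in the liver libraries, in endogenous TPM on a log axis, with 1 point per library and a line joining the libraries. Junb is highest at 3.15 and 6.72 TPM, Fosb lowest at 0 and 0.010 TPM, and Egr1 spans the widest interval on the log axis of the genes with a value above 0 in both libraries, 0.151 to 1.62 TPM.

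The Jun family supplied most of the signal. Junb, which encodes an AP-1 subunit of weaker activating power than Jun, was the highest member at 3.15 TPM in replicate 1 and 6.72 TPM in replicate 2, a mean of 4.94 ± 2.52 (SD, n = 2), from 1620 and 2215 counts. Jund, the Jun protein that many resting cells express, stood at 1.60 and 3.11 TPM, from 1342 and 1675 counts. Jun itself, the founding AP-1 subunit, stood lower at 0.401 and 0.783 TPM, from 373 and 468 counts. The order Junb, Jund, Jun held in both libraries. Together the Jun genes held 53.6% of the summed TPM of the 10 genes in replicate 1 and 52.2% in replicate 2. Of the 13596 protein-coding genes that averaged at least 10 counts, 79.8% had a lower mean TPM than Junb, 65.1% lower than Jund and 35.3% lower than Jun. Junb (ENSMUSG00000052837.5) lies on chromosome 8 from 84974484 to 84978718 (mm10), on the minus strand. Jund (ENSMUSG00000071076.5) lies on chromosome 8 from 70698949 to 70700616 (mm10), on the plus strand. Jun (ENSMUSG00000052684.4) lies on chromosome 4 from 95049034 to 95052222 (mm10), on the minus strand. With TPM rescaled over protein-coding genes alone, Junb stood at 25.9 and 41.1 TPM.

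The Fos family was near the floor. Fos, the AP-1 subunit that cannot pair with itself, had 63 counts in replicate 1 and 40 in replicate 2, or 0.141 and 0.100 TPM. Fosb, its paralog, had 2 and 5 counts and was listed at 0 and 0.010 TPM. Fos was the only member with a lower CPM (counts scaled to library size) in replicate 2. The deposited intervals of the Fos TPM, 0.114 to 0.205 and 0.0942 to 0.197, overlapped. Summed over the family, Fos genes held 1.46% and 0.544% of the TPM of the 10 genes. Jun exceeded Fos 2.86 times in replicate 1 and 7.80 times in replicate 2 by TPM, and the ranges of those genes over the libraries did not overlap. Atf3, a stress-induced repressor of the same basic leucine zipper class, had 32 and 57 counts, or 0.0602 and 0.161 TPM. Its range overlapped that of Fos. Fos (ENSMUSG00000021250.9) lies on chromosome 12 from 85473890 to 85477273 (mm10), on the plus strand. Fosb (ENSMUSG00000003545.2) lies on chromosome 7 from 19302696 to 19310051 (mm10), on the minus strand. Atf3 (ENSMUSG00000026628.9) lies on chromosome 1 from 191170296 to 191218039 (mm10), on the minus strand.

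The Fos promoter is shown because Fos is the classic immediate early gene and yet lay near the floor here. It is printed 5' to 3' from 250 bases before to 50 bases after the start, from RefSeq (GRCm38.p6). Capitals mark TGACG, the core of the cAMP response element, at positions -129 to -125 and -66 to -62 from the start, and the TATA box TATAAA at -33 to -28. No CArG box was found in this window, which says nothing of bases further upstream.

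Fos promoter, chr12:85473640-85473939, plus strand: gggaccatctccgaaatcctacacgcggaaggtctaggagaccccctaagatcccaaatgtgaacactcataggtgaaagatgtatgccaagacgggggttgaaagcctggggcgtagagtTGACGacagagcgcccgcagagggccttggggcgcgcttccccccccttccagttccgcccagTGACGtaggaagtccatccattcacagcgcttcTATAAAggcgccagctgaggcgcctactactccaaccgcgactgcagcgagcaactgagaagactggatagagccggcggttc

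The RNA decay factors Zfp36 and Btg2 ranked 2 and 5 of the 10 by mean TPM. Zfp36, the AU-rich element binding protein tristetraprolin, stood at 1.92 and 3.97 TPM from 957 and 1270 counts, the second highest of the group per length. By CPM, with no length in it, Jund came before Zfp36 and Btg2 before Ier2. The TPM order also rests on the gene lengths in the files, which were 2878 bases for Jund and 1792 for Zfp36, where the M21 transcripts have 1668 and 2790. Btg2, an antiproliferative protein that binds the deadenylase, stood at 0.763 and 1.52 TPM from 607 and 776 counts. Ier2, a nuclear protein of less defined function, stood at 1.44 and 2.34 TPM from 591 and 622 counts. Zfp36, Jund, Ier2 and Btg2 kept this order in both libraries, though the ranges of neighbours in it overlapped. Zfp36 (ENSMUSG00000044786.5) lies on chromosome 7 from 28376784 to 28380253 (mm10), on the minus strand. Btg2 (ENSMUSG00000020423.6) lies on chromosome 1 from 134075170 to 134079120 (mm10), on the minus strand. Ier2 (ENSMUSG00000053560.4) lies on chromosome 8 from 84661331 to 84662852 (mm10), on the minus strand. In protein-coding TPM, Zfp36 stood at 15.7 and 24.3, Ier2 at 11.8 and 14.3 and Btg2 at 6.26 and 9.27.

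Promoters of Zfp36, Btg2 and Junb are shown because together they hold sites of several signal inputs, some of them shared. By mean TPM these genes ranked 2, 5 and 1 of the 10. Jund and Ier2, at ranks 3 and 4, are not shown. The sequences are from the same RefSeq table and build. Capitals mark the CArG box of SRF at -58 to -49 and the EGR site GCGNGGGCG at -105 to -97 in Zfp36. In Btg2 they mark a full cAMP response element, TGACGTCA, at -166 to -159, within which the core TGACG reads on both strands, and an EGR site at -131 to -123. In Junb they mark a TGACG core at -106 to -102 and TATAAA at 1 to 6. The RefSeq start of Junb lies upstream of the GENCODE gene.

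Zfp36 promoter, chr7:28379179-28379478, minus strand: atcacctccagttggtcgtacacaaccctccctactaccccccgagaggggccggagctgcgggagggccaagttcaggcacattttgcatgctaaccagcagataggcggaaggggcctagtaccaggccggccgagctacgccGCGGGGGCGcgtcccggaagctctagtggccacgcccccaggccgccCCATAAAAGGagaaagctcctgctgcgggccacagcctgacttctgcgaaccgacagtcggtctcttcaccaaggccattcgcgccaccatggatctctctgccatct
Btg2 promoter, chr1:134079106-134079405, minus strand: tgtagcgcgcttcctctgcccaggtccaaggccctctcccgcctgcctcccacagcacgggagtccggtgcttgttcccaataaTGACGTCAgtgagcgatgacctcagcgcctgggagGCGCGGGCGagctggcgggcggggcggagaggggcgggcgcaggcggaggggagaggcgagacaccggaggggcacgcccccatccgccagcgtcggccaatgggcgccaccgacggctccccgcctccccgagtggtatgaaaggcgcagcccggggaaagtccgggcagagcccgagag
Junb promoter, chr8:84978699-84978998, minus strand: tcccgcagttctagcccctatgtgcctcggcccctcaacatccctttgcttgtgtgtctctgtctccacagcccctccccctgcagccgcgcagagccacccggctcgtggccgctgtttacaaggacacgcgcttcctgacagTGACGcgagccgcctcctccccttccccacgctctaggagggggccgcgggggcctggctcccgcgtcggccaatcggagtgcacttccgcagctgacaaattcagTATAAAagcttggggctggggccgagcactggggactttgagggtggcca

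Promoters of 8 of the 10 genes were searched on both strands, since Egr1 and Ier2 were not analysed here for promoter sequence. The CArG box was found in 1 of 8, Zfp36, against 1.57% of 27025 promoters of the same length. The full cAMP response element TGACGTCA was in 1 of 8, Btg2, against 1.88%. Its core TGACG, which the full site contains, was in 5 of 8 against 5681 of the 27025, namely Fos, Fosb, Junb, Atf3 and Btg2. The EGR site GCGNGGGCG was in Fosb, Zfp36 and Btg2, against 5.55% of all promoters. TATAAA was in Fos and Junb against 14.2%, and CCAAT was in Jun, Junb, Atf3 and Btg2 against 37.9%. The AP-1 site TGANTCA was in none of the 8, against 7.93%. The Jund window held none of these. RefSeq starts differ from GENCODE for some genes. They lie upstream of the gene for Jund, Junb and Btg2, and inside it for Zfp36, Fosb and Atf3. Matches are descriptions of letters and not of bound sites.

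AU-rich pieces were counted in the 3' untranslated region of the leading transcript of each gene, from the GENCODE M21 sequences. The short piece ATTTA was present in 9 of 10 genes, all but Ier2, against 70.5% of 13533 protein-coding genes that averaged at least 10 counts, each with its longest such region. The longer TATTTAT, which contains it, was present in 7 of 10, all but Junb, Egr1 and Ier2, against 29.9%. These regions differ in length, from 485 bases in Junb to 2199 in Btg2. Zfp36 held 3 TATTTAT pieces in 774 bases, more than 99.4% of the 1715 such genes with a region of similar length, and Fos held 2 in 815 bases, more than 96.4% of 1765. These were the highest shares of the 10. Jund exceeded 86.4% of genes of similar length in TATTTAT, Atf3 74.4%, Jun 74.0%, Fosb 61.3% and Btg2 61.2%, each with 1 piece. In ATTTA, Fosb held 1 against a median of 3 in regions of its length, and 11.3% of those held fewer. Gene models of Jund, Zfp36, Junb and Fosb differ in length between the release used for the counts and M21, so the counted and the searched transcripts are not the same there.

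The sites of Fos, Zfp36 and Jun are shown, because Zfp36 protein is known to bind such pieces, its own messenger RNA included. Each line holds 30 bases, 5' to 3', with ATTTA in capitals. They cover bases 643 to 672 of the region in Fos, 571 to 600 in Zfp36 and 1160 to 1189 in Jun.

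Fos: tgtgttttcaATTTATTTAttaagatggat
Zfp36: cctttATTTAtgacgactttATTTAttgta
Jun: ttgcttgtgcatATTTAtaatagcgttcgt

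Between the libraries, 8 of the 9 members that averaged at least 10 counts had a log2 ratio above 0, against 50.3% of 15492 genes under the same filter. Ratios are replicate 2 over replicate 1, as log2 of CPM with TMM scaling plus a pseudocount of 0.5 CPM. The median of the 9 members was 0.42 and that of all genes 0.0029. Fosb was left out by the filter. More than 2-fold, 1 of the 9, Egr1, was higher in replicate 2, against 1.25% of all genes, and 0 were lower, against 1.51%. At this pseudocount Egr1 was also the only member over 1.5-fold higher, against 6.15% of all genes. The pseudocount, equal to 39.8 and 37.4 counts, is of the size of the Atf3 counts, and Atf3 moved from 0.48 to 0.84 with a pseudocount of 0.05 CPM. The other 7 higher members had ratios between 0.15 and 0.53, inside the range of -0.79 to 0.80 that held the middle 95% of all genes.

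**Figure D2:**
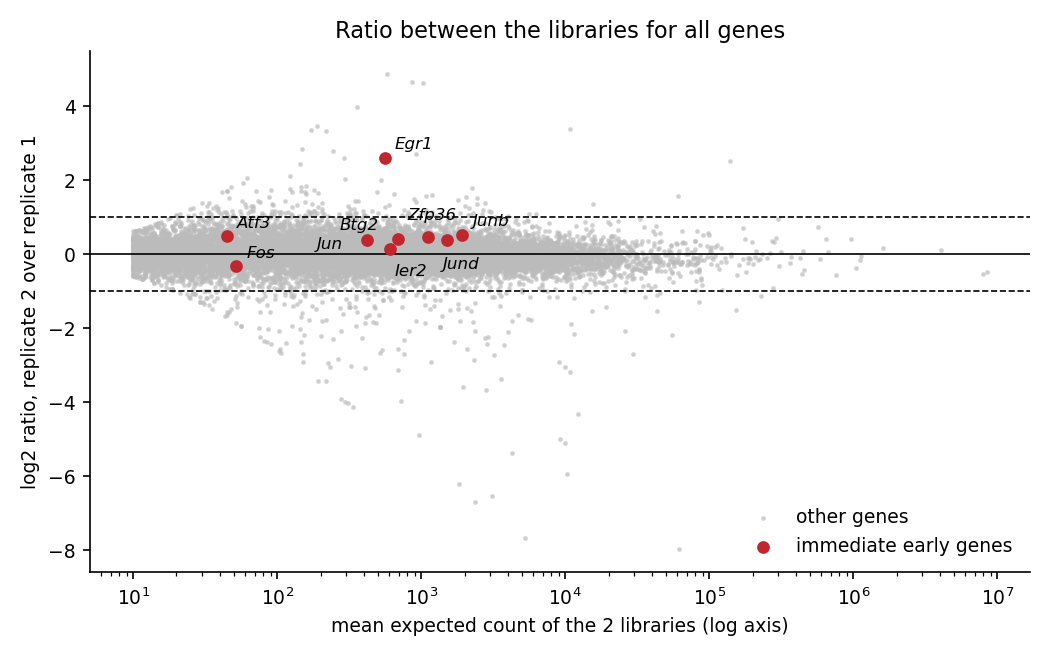
Log2 ratio of TMM-scaled CPM, replicate 2 over replicate 1, against the mean expected count on a log axis, for 15492 genes (grey) and the 9 immediate early genes among them that averaged at least 10 counts (red). Dashed lines mark a 2-fold difference. Egr1 at 2.61 is the only red point beyond them.

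For some members, the difference between the libraries was larger than counting error, with the TMM scaling taken as fixed. Without a pseudocount, Junb was 1.45-fold higher in replicate 2, with an exact 95% binomial interval of 1.36 to 1.55 that covers counting error only. Zfp36 was 1.41-fold higher (1.30 to 1.54), Btg2 1.36-fold (1.22 to 1.51), Jun 1.33-fold (1.16 to 1.53) and Jund 1.33-fold (1.23 to 1.43). The intervals of those 5 genes overlapped one another. Atf3 was 1.89-fold higher (1.21 to 3.02). The interval of Ier2, 0.998 to 1.25, and that of Fos, 0.443 to 1.02, included equal values. Fosb, at 2 and 5 counts, gave a ratio of 2.66 with an interval of 0.435 to 27.9.

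**Figure D3:**
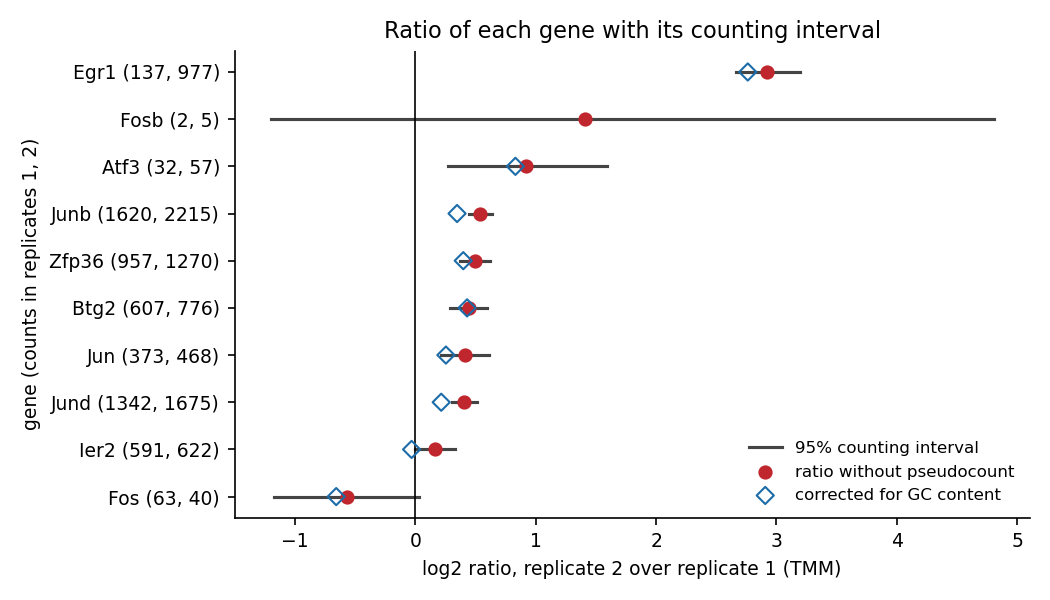
Log2 ratio of each immediate early gene without a pseudocount (red) with its exact 95% counting interval (bar), and the same ratio less the median of genes of like GC content (blue diamond). Egr1 stands apart at 2.92, 8 genes lie between 0.16 and 1.41 and Fos lies at -0.57.

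Base composition moved with the ratios. The median ratio of all genes went from -0.19 in the lowest of 10 equal groups by GC content to 0.20 in the highest, and the share of genes with a ratio above 0 went from 25.6% to 73.3%. The 9 members lie in groups 6 to 10, with Junb, Jund and Ier2 in the highest. After the median of its GC group was taken off, a correction chosen after seeing the data, 7 of the 9 members had a ratio above 0. That correction brings the median of each GC group to that of all genes. The share of all genes above 0 after it was not counted. Junb stood at 0.34, Zfp36 at 0.38, Btg2 at 0.41, Jun at 0.22, Jund at 0.21 and Atf3 at 0.39. Ier2 moved from 0.15 to -0.040, and Fos from -0.32 to -0.41. Egr1 stood at 2.45. The part of base composition in the members' common direction was not tested further.

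**Figure D4:**
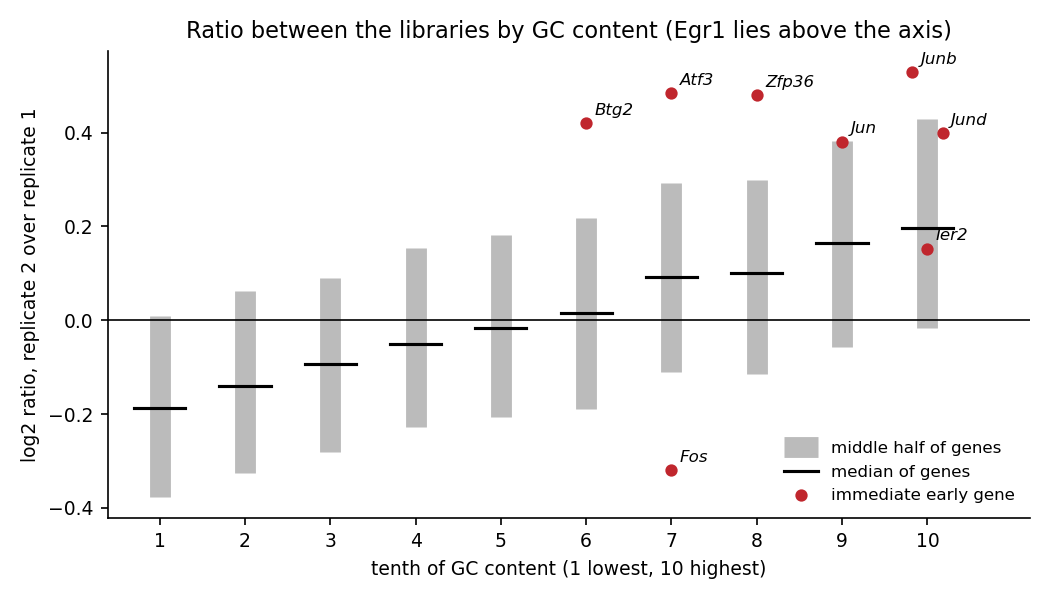
Log2 ratio, replicate 2 over replicate 1, in 10 equal groups by GC content from lowest to highest, with the interquartile range (grey) and median (black) of all genes and the immediate early genes (red, moved sideways where they would overlap). Egr1, in group 9 at 2.61, lies above the axis. Medians run from -0.19 to 0.20, and Ier2 lies at 0.15, below the median of its group.

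Egr1, a zinc finger transcription factor of the growth response, differed most. It had 137 counts in replicate 1 and 977 in replicate 2, or 0.151 and 1.62 TPM, so that its rank among the 10 was 7 in the first and 5 in the second. The log2 ratio was 2.61, and without the pseudocount the fold was 7.58 (6.34 to 9.14). Among 13596 protein-coding genes it had the 10th highest ratio. Under the scalings and pseudocounts tried, the log2 ratio of Egr1 lay between 2.37 and 3.34. Egr1 (ENSMUSG00000038418.7) lies on chromosome 18 from 34859823 to 34864984 (mm10). Its corepressors Nab1 and Nab2 had 4515 and 4676 counts and 674 and 928 counts, ratios of 0.14 and 0.52. The paralogs were near 0: Egr2 had 4 and 8 counts, Egr3 had 0 and 2, and Egr4 had 0 in both. With 2 libraries a pattern is a single ratio. Of 11582 genes that averaged at least 100 counts, the 5 nearest to the ratio of Egr1 were Igha at 2.60, Serpina1e at 2.52, Gsta1 at 2.71, Esm1 at 2.78 and Ccl22 at 2.44.

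Markers of several other cell types were also higher in replicate 2. Summed over the 10 adrenal cortex markers, the level was 7.16 TPM in replicate 1 and 25.4 TPM in replicate 2. Of the 8 that averaged at least 10 counts, 6 were over 2-fold higher, against 1.25% of all genes. The median log2 ratio of the 8 was 3.73. Of the 10, 4 had 0 counts in replicate 1 and none had 0 in replicate 2. Star, the cholesterol carrier of steroid synthesis, had 48 and 2021 counts, Cyp11a1, the first enzyme of that synthesis, had 0 and 379, and Nr5a1, the regulator of steroid genes, had 0 and 60. Mrap, with 1546 and 1483 counts, or 6.28 and 9.32 TPM, had a log2 ratio of 0.028. It supplied most of the summed TPM of the list in replicate 1. Adrenal medulla markers summed to 0.221 and 1.38 TPM, with Chgb at 1 and 122 counts and Pnmt at 0 and 50. B or plasma cell markers summed to 2.01 and 14.5 TPM, and all 8 were higher in replicate 2, against 50.3% of all genes. Pancreatic acinar markers went the other way, at 185 and 49.6 TPM, as did skeletal muscle markers, at 5.18 and 0.241 TPM. All 10 acinar and all 7 muscle markers were over 2-fold lower, against 1.51% of all genes. Their median log2 ratios were -2.32 and -3.41. Hepatocyte markers, at 10780 and 17030 TPM, exceeded the sums of all these lists, and neutrophil markers summed to 0.532 and 1.12 TPM. All of these sums contain the TPM offset between the libraries given above. With TMM scaling, median ratios were 0.10 for hepatocyte markers and 0.13 for the 2 neutrophil markers that averaged at least 10 counts. The part of any of these cell type markers in the Egr1 ratio was not tested. In bulk tissue, more cells of a type and more RNA per cell cannot be told apart.

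Other immediate early genes were split between the libraries. Of 48 listed genes, 41 averaged at least 10 counts, of which 19 were higher and 22 lower in replicate 2 with TMM scaling, while 34 were higher by the spike-in total and 39 by deposited TPM. The median ratio with TMM scaling was -0.029. Over 2-fold higher were Ccn2, a matrix protein that responds to YAP and TGF-beta, with 504 and 1327 counts, and Gadd45b, a stress response protein, with 65 and 209 counts. Below that, Sik1, a kinase induced by cAMP, had 368 and 710 counts, a ratio of 0.96, Rhob 0.84 and Fosl2, a Fos relative, 0.77 from 344 and 577 counts. On the other side, Cebpd, an acute phase regulator, had 686 and 359 counts, a ratio of -0.78. Nr4a1, an orphan nuclear receptor often induced with Fos, had 11 and 43 counts. Fosl1, Egr4 and Npas4 had 0 in both libraries. The highest of the list were Errfi1, an inhibitor of the EGF receptor, at 80.3 ± 11.6 TPM, Cebpb at 17.4 ± 1.97 TPM and Mcl1 at 10.3 ± 5.84 TPM (SD, n = 2), each mean above those of all 10 members.

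Genes of the upstream machinery were detected in both libraries. All 28 listed kinases and transcription factors were measured, 20 of them higher in replicate 2 with TMM scaling, with a median ratio of 0.12 and none over 2-fold apart. Of these 28, 26 were higher by the endogenous total, and all 28 by the spike-in total and by deposited TPM. For this and the lists that follow, the share of all genes above 0 with TMM scaling was the 50.3% given above. That share is not given here for the other scalings, which move all genes together. The median of all genes moved by -0.012 with DESeq2 size factors and 0.12 with the endogenous total. It moved by 0.27 with the spike-in total and 0.53 with deposited TPM. The receptor Egfr stood at 25.5 ± 5.14 TPM. Srf had 324 and 379 counts and Creb1 2260 and 1971. Basic leucine zipper genes listed as AP-1 and CREB/ATF partners had a median ratio of 0.13, with 15 of 21 higher. That count was 13 with DESeq2 size factors, 20 by the spike-in total and 21 by deposited TPM. The highest of this list were Creb3l3 at 25.7 ± 7.10 TPM, Cebpa at 24.4 ± 7.43 TPM and Cebpb, each mean above that of Junb.

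Feedback regulators had a median ratio of 0.15, with 16 of 23 higher in replicate 2 with TMM scaling and 22 by the spike-in total and by deposited TPM. Dusp5, a nuclear dual-specificity phosphatase, was the one over 2-fold higher, at 14 and 74 counts, while Dusp1, which is induced by many of the same signals, had 544 and 541 counts. Zfp36 and Btg relatives with the CCR4-NOT deadenylase had 11 of 21 higher with TMM scaling, with a median of 0.0080 and none over 2-fold apart. That count was 9 with DESeq2 size factors, 17 by the endogenous total, and 21 by the spike-in total and by deposited TPM. The scaffold Cnot1 had 12032 and 12707 counts, and the relatives Zfp36l1, Zfp36l2 and Btg1 had ratios of 0.40, 0.15 and 0.36. Known Zfp36 target messenger RNAs were measured for 9 of 15, 6 of them higher (8 by the spike-in total, 9 by deposited TPM), with a median of 0.11, and Il10 at 11 and 59 counts was over 2-fold higher. Integrated stress and heat shock genes had a median of 0.26, with 12 of 16 higher, and 15 by the spike-in total and by deposited TPM. Asns, the asparagine synthetase that Atf4 controls, had 61 and 256 counts, while Atf4 had 2502 and 2432 and its target Trib3 had 926 and 784. Chac1, of the same list, went the other way at 269 and 139 counts, a ratio of -0.72. The heat shock gene Hspa1b had 322 and 792 counts, and is uncertain, since reads can be split with its near-identical copy Hspa1a at 21 and 49 counts.

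**Figure D5:**
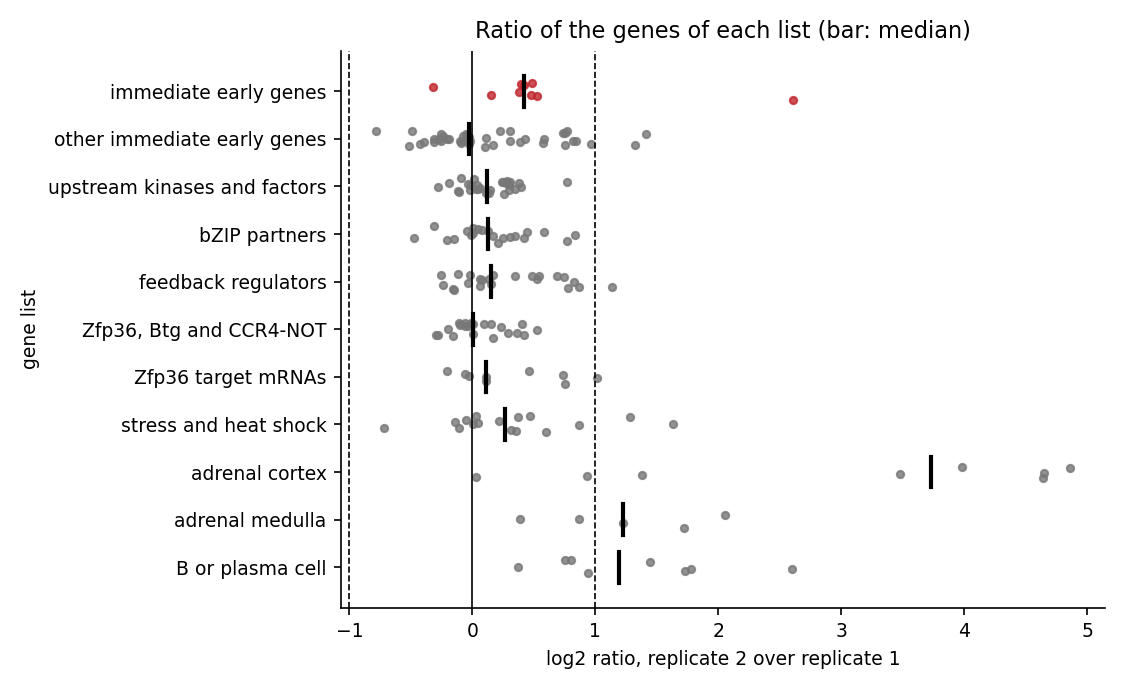
Log2 ratio, replicate 2 over replicate 1, in the immediate early genes (red) and in related and marker lists (grey). Each point is a gene that averaged at least 10 counts, black bars mark the median of each list and dashed lines mark 2-fold. The marker lists drawn are adrenal cortex, adrenal medulla and B or plasma cell. Pancreatic acinar and skeletal muscle markers, which were lower in replicate 2, are not drawn. The median is 0.42 for the 9 immediate early genes that passed this filter, -0.029 for the other immediate early genes and 3.73 for adrenal cortex markers.

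In the transcript tables, 7 of the 10 genes had a single transcript, which took 100% of the gene. Egr1 had 2 transcripts. The shorter, ENSMUST00000165033.1 of 3036 nucleotides in 3 exons, held 91.2% of Egr1 TPM in replicate 1 and 87.8% in replicate 2, and the longer, ENSMUST00000064795.5 of 4484 nucleotides in 2 exons, held 8.78% and 12.2%. Both are annotated as protein-coding. The shorter had 119.6 and 808 counts and the longer 17.4 and 169, so both had more counts in replicate 2. Fos had 4 transcripts. The coding ENSMUST00000021674.6 held 67.7% in replicate 1 and 100% in replicate 2, while the processed transcript ENSMUST00000136122.3, of 795 nucleotides, held 32.3% in replicate 1 from 8.07 counts. By expected counts, the coding transcript held 87.2% in replicate 1. By posterior mean TPM its share was 57.7% in replicate 1 and 71.9% in replicate 2, at 63 and 40 counts for the gene. Atf3 had 3 transcripts, of which the coding ENSMUST00000027941.9 took 100% in both libraries. The share by posterior mean TPM was 54.5% and 81.7%, at 32 and 57 counts.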

How the data were processed

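Per the notes deposited with each library, the authors quantified each library separately on mm10 with GENCODE M4; the quantifier is not given in the sources used here. Deposited expected counts are estimated, unnormalised fragments. TPM values as deposited are length-scaled and printed to 2 decimals, and FPKM values as deposited served only as an alternative order. The deposited signal columns bound each TPM estimate and give the posterior SD of each count. The deposited percent is the share of a transcript in its gene. Symbols and coordinates are from GENCODE M21 of the same assembly, matched by gene identifier without version, which found 42462 of 43346. Sequences are from RefSeq (GRCm38.p6) and GENCODE M21.

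Expected counts were rounded for edgeR 4.0.16 (TMM factors 0.950 and 1.05) and DESeq2 1.42.0 in R 4.3.3. The pseudocount of 0.5 CPM equals 39.8 and 37.4 counts and understates the ratios of low genes. Alternatives were other scalings, pseudocounts, filters and posterior means. The ratio computation was tested on simulated data. No p-value is given, since each side is 1 library. Members, lists and rules were chosen with earlier results of these data known. Searches for CCAAT and AU-rich pieces and the GC correction were chosen after seeing the data, and no protein comparison was run. Named genes are the members, and list genes over 2-fold apart or among the 3 highest of a list, some of which are not reported here; other list genes named were chosen after their values were seen. Python 3.11.15, pandas 2.3.3 and scipy 1.17.1 were used.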

Additional observations from a re-analysis of the deposited data

How the results depend on the processing

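No paired analysis was possible because the libraries form a single group, with nothing to pair across. Members higher in replicate 2 numbered 8 of 9, and 5 with a mean of 1 TPM or more, a filter that 5 members passed. One member, Egr1, was over 2-fold higher, against 193 of 15492 genes. By the ratio of deposited TPM, 4 members were, against 2323 of those genes. That scaling moves the median of all genes by 0.53. With the 1 TPM filter Egr1 is left out and 0 members remained. Of all genes, 193 were over 2-fold higher in replicate 2. That count was 471 by the spike-in total, 2323 by deposited TPM, 719 with a pseudocount of 0.05 CPM and 98 with 1 CPM. It was 126 of the 11582 genes with a mean count of 100 or more, 61 at 1 TPM and 953 at 1.5-fold. The 1 TPM filter also leaves fewer genes, a number not given here. Genes over 2-fold lower numbered 234, against 609 with a pseudocount of 0.05 CPM, 121 at 1 TPM and 795 at 1.5-fold. Other immediate early genes higher in replicate 2 numbered 19, against 34 by the spike-in total and 39 by deposited TPM. The sign of 1 member changed, Ier2 at -0.040 after GC correction. Fos stayed below 0 under each scaling and pseudocount tried, from -0.53 to -0.14, and lay at -0.57 without a pseudocount. These settings all reuse the same 63 and 40 counts, whose counting interval included equal values. Fosb, at 2 and 5 counts, is beyond what the depth can resolve.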
